A study of Mus musculus with 16 samples.

Results

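Macrophage marker genes are described here in bulk RNA sequencing of rotator cuff muscle from mice. The markers are 10 genes chosen by name, Cd68, Adgre1, Itgam, Csf1r, Lyz2, C1qa, C1qb, C1qc, Ctss and Tyrobp, and all 10 were among the 11710 genes of the deposited count table. The study crossed strain with surgery in 4 groups of 4 samples. The groups were C57BL/6J mice (BL6) that were unoperated controls, BL6 mice whose cuff tendon was cut and muscle denervated, and MRL/MpJ mice (MRL) in the same unoperated and operated states. MRL is an inbred strain studied for its wound healing. The muscle is called rotator cuff muscle because the labels of the samples say supraspinatus where the design text of the series says infraspinatus. The labels do not say that samples come from separate animals, and age, sex and the time after surgery were not used here, so p-values measure the spread between these samples.

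Macrophages are phagocytes that clear dying cells and debris. In skeletal muscle they live between the fibres, and after injury or denervation monocytes from the blood add to them. They depend on the receptor for colony-stimulating factor 1, take up complement-coated material, and digest it in lysosomes. No gene of the list is limited to macrophages in every tissue: monocytes, neutrophils, dendritic cells and natural killer cells share some of them. In bulk muscle, more macrophages and more of a transcript per macrophage cannot be told apart.

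Libraries held 24323862 to 43552964 counts, and a count of 3 was worth 0.0718 to 0.122 CPM. CPM are counts-per-million values with library sizes scaled by trimmed mean of M-values factors. The 10 markers had 11 to 11271 counts in a library. Mitochondrial genes took 12.2 to 14.2% of counts in unoperated and 17.4 to 23.8% in operated BL6, 11 to 11.6% in unoperated MRL, and 20.1 to 24.9% in 3 operated MRL libraries, with 11.8% in the other, replicate 4. The summed level of 7 endothelial markers also moved with surgery, from 345 to 448 CPM unoperated to 759 to 933 CPM operated in BL6, and from 262 to 365 CPM to 371 to 950 CPM in MRL. Their part in the changes of the markers was not tested. Among the markers 2 libraries stood far above their groups and are shown apart throughout: replicate 1 of unoperated MRL and replicate 4 of operated BL6. The summed CPM of the 10 markers was 536 in the first, where the rest of its group held 97.6 to 132, and 828 in the second, where the rest of its group held 122 to 230. The edgeR tests of the markers are therefore given with both libraries and without them. DESeq2 and voom results, and those of several genes outside the markers, are given with all libraries only. How far these rest on the 2 libraries is not shown. Over all genes, replicate 4 of operated MRL also stood apart from its group (chi-square per degree of freedom 233 to 301, against 44.4 to 64.4 between the others), though its summed marker level did not.

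Per kilobase of annotated exon, the markers kept nearly the same order of levels from sample to sample. Lyz2 was the highest and Itgam the lowest of the 10 in 16 of 16 samples, and C1qa was second in all 16. In unoperated BL6 the median level per kilobase was 20.8 CPM for Lyz2, 6.91 for C1qa, 6.17 for C1qb, 3.19 for C1qc, 3.14 for Tyrobp, 2.37 for Ctss, 1.43 for Cd68, 1.32 for Csf1r, 0.369 for Adgre1 and 0.0990 for Itgam. The sample ranges of every pair of neighbours in this order overlapped, as for C1qa (5.39 to 16.6) and C1qb (4.35 to 15.6), except Csf1r (1.10 to 2.70) above Adgre1 (0.259 to 1.05). In operated MRL the same scale gave medians from 75.4 CPM for Lyz2 down to 0.416 for Itgam. Replicate 1 of unoperated MRL was the one library where Adgre1 ranked seventh, ahead of Cd68 and Csf1r: its Adgre1 level per kilobase was 15 CPM, against 8.56 for Cd68 and 3.87 for Csf1r.

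PU.1, the product of Spi1, is a transcription factor needed for macrophage development that binds sites with a GAGGAA core. The promoters of the markers were searched for this core, for the AP-1 motif TGANTCA and for the E-box CACGTG of lysosomal genes, on both strands, in a window of 300 bases around the RefSeq start site (GRCm38.p6). Of the 10 markers 6 had a promoter in the RefSeq table. GAGGAA was in 5 of these 6 windows, and in 28.3% of 32851 promoters of the same length. TGANTCA was in 1 of 6 (Cd68) and in 7.81% of all promoters, and CACGTG was in 0 of 6 and in 7.15%. A match is a description of letters, not of binding. The 250 bases upstream of the start site are shown for 4 of the markers that hold the core, with GAGGAA (or TTCCTC on the other strand) and TGANTCA in capitals. Ctss lies on the plus strand at chr3:95526536-95526785, with its core at position -164 from the start.
Ctss: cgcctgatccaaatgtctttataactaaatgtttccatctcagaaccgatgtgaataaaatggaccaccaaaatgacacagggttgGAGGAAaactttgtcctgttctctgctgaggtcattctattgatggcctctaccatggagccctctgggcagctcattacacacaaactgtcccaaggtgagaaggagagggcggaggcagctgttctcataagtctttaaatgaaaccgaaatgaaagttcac
Itgam lies on the plus strand at chr7:128062390-128062639 and holds 2 cores, at positions -84 and -15 from the start.
Itgam: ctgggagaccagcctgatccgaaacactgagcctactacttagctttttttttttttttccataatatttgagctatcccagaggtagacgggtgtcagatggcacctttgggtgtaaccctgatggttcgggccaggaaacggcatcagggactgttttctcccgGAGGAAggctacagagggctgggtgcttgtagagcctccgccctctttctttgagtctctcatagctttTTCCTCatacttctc
C1qb lies on the minus strand at chr4:136886201-136886450, with its core at position -30 from the start.
C1qb: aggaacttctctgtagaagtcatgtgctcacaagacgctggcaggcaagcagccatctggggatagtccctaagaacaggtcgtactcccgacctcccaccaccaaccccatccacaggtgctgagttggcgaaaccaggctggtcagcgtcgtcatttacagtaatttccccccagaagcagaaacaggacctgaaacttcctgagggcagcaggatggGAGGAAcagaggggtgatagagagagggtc
Cd68 lies on the minus strand at chr11:69666171-69666420, with the core at position -225 and AP-1 motifs at -149 and -24 from the start.
Cd68: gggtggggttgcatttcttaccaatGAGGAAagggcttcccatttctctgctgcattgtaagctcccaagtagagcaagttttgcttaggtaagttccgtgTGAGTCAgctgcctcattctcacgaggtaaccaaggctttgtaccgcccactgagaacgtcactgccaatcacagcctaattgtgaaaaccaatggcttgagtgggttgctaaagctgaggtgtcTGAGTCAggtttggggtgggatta

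**Figure D1:**
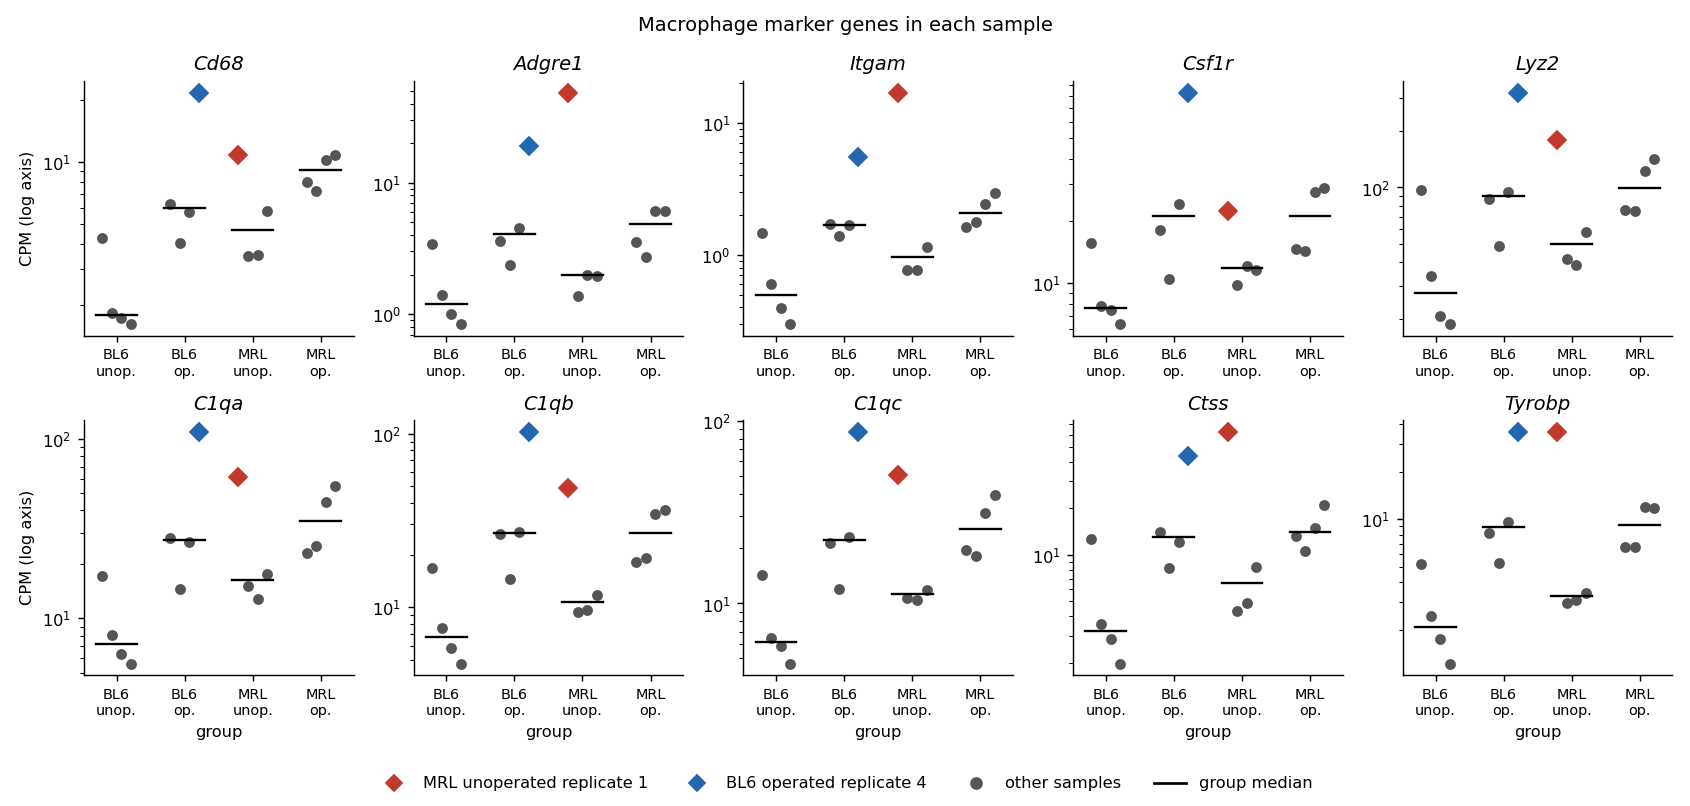
Level in CPM of each macrophage marker gene (log axis) in the 16 samples, by group, with a bar at the group median. The red diamond is replicate 1 of unoperated MRL and the blue diamond is replicate 4 of operated BL6, which held the summed marker levels of 536 and 828 CPM.

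The first question of the design is how surgery changed these genes in each strain. In BL6, 7 of 10 markers rose after surgery and none fell, by edgeR's quasi-likelihood test with an adjusted p under 0.05, while 35.1% of all 11709 genes tested rose. The median log2 fold change of the 10 was 2.09, against 0.041 over all genes. In MRL, 0 of 10 markers were called, with a median of 0.39 (0.007 over all genes), while 22.3% of all genes rose, and 0 of 10 had an unadjusted p under 0.05 (54.2% of all genes). DESeq2 also called 0 there, while it called 2769 of the 11709 genes as higher. Limma-voom with sample quality weights called 4, while it called 3984 of the 11709 genes as higher and 3894 as lower. Without the 2 libraries that stand apart the picture changed: 8 of 10 rose in BL6 (median 1.19, 32.7% of all genes rising) and 9 of 10 in MRL (median 1.31, 29.1%). No marker was called for a difference between the strains in its response, either with all libraries (0 of 10, 0.248% of genes in either direction, 3 of 10 at an unadjusted p under 0.05 and 15.7% of genes) or without the 2 (0 of 10, 0.188%, 0 of 10 unadjusted and 11.5% of genes). For this difference DESeq2 called 0 of 10 as well, and 250 of 11709 genes in either direction. The median difference of response, MRL minus BL6, was -1.83 with all libraries, 0.04 without the 2, and -0.49 when replicate 1 of unoperated BL6 was left out as well.

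Cd68, a lysosomal glycoprotein used as a general macrophage marker, lies on chromosome 11 (69664213 to 69666153, minus strand, GRCm38). It had 4.27, 1.84, 1.74 and 1.62 CPM in replicates 1 to 4 of unoperated BL6 and 6.26, 4.03, 5.73 and 21.8 CPM in operated BL6. In MRL it had 10.8, 3.50, 3.52 and 5.80 CPM unoperated and 8.0, 7.25, 10.2 and 10.8 CPM operated. The BL6 groups overlapped only where replicate 1 of the unoperated samples passed replicate 2 of the operated ones, and the MRL groups overlapped only through replicate 1 of the unoperated samples. Cd68 rose in BL6 by 2.01 on the log2 scale (SE 0.52, edgeR quasi-likelihood adjusted p = 0.00312), and had 0.62 in MRL (SE 0.49, adjusted p = 0.305). It rose in both strains without the 2 libraries, by 1.17 in BL6 (adjusted p = 0.00577) and 1.09 in MRL (adjusted p = 0.0109).

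Lyz2, which codes for the lysozyme of macrophages, monocytes and neutrophils, was the most abundant marker (chromosome 10, 117277331 to 117282321, minus strand). Its levels were 97.3, 33.9, 20.8 and 18.7 CPM in unoperated BL6 and 86.7, 48.6, 94.5 and 320 CPM in operated BL6. MRL samples held 179, 41.5, 38.5 and 58.2 CPM unoperated and 76.2, 75.0, 122 and 142 CPM operated. Replicate 1 of unoperated BL6 lay above 3 of the 4 operated BL6 samples, so the groups of this strain overlapped widely. The gene rose in BL6 by 1.69 on the log2 scale, SE 0.65, adjusted p = 0.0313 in edgeR's quasi-likelihood test, and was not called in MRL (0.39, SE 0.64, adjusted p = 0.627). Lyz2 missed the threshold in both strains without the 2 libraries, with 0.84 in BL6 (adjusted p = 0.128) and 1.18 in MRL (adjusted p = 0.0519). Its near-identical neighbour Lyz1 held 1.45 to 6.56% as many counts as Lyz2, and how reads that match both were counted is not given in the sources used here.

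Ctss codes for cathepsin S, a protease that trims the invariant chain of class II molecules in antigen-presenting cells (chromosome 3, 95526786 to 95556403, plus strand). Unoperated BL6 had 12.7, 3.59, 2.85 and 1.98 CPM and operated BL6 14.1, 8.25, 12.1 and 44.0 CPM. Unoperated MRL had 62.4, 4.32, 4.87 and 8.34 CPM and operated MRL 13.2, 10.6, 14.9 and 21.2 CPM. Apart from replicate 1 of each unoperated group, every operated sample lay above the unoperated samples of its strain. Ctss was not called in BL6 (1.91, SE 0.83, adjusted p = 0.0522 in edgeR's quasi-likelihood test) or in MRL (-0.41, SE 0.79, adjusted p = 0.685). It rose in MRL without the 2 libraries, by 1.37 (adjusted p = 0.0340) and had 1.13 in BL6 (adjusted p = 0.0577).

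Csf1r, the receptor for Csf1 and Il34 on which macrophages depend, lies on chromosome 18. It had 15.6, 7.78, 7.48 and 6.36 CPM in unoperated BL6 and 18.1, 10.5, 24.2 and 83.1 CPM in operated BL6. For MRL the values were 22.3, 9.79, 12.1 and 11.6 CPM unoperated and 14.7, 14.4, 27.5 and 28.9 CPM operated. Replicate 1 of unoperated MRL was only 2.0 times the mean of the other 3 for this gene, the smallest excess of any marker. Csf1r rose in BL6 by 1.87, SE 0.53 (edgeR quasi-likelihood adjusted p = 0.00574), and was not called in MRL (0.62, SE 0.52, adjusted p = 0.332). Its rise without the 2 libraries was 0.92 in BL6 (adjusted p = 0.0304) and 0.95 in MRL (adjusted p = 0.0336).

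Adgre1 codes for the F4/80 surface protein by which mouse macrophages are commonly sorted (chromosome 17, 57358691 to 57483527, plus strand). Its levels were 3.39, 1.39, 1.0 and 0.839 CPM in unoperated BL6 and 3.63, 2.36, 4.51 and 19.1 CPM in operated BL6. Those of MRL were 48.5, 1.38, 2.0 and 1.95 CPM unoperated and 3.57, 2.71, 6.07 and 6.13 CPM operated. The highest sample of all 16 was thus an unoperated one, at 27.3 times the mean of the other 3 in its group. Adgre1 was called in neither strain, with 2.18 in BL6 (SE 1.04, edgeR quasi-likelihood adjusted p = 0.0738) and -1.54 in MRL (SE 0.99, adjusted p = 0.210). The fit without the 2 libraries called it in both, higher by 1.09 (adjusted p = 0.0404) and 1.40 (adjusted p = 0.0170), so the sign in MRL turned.

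Itgam codes for CD11b, the alpha chain of an integrin that binds complement fragments and lets myeloid cells adhere and migrate (chromosome 7, 128062640 to 128118491, plus strand). It was the least abundant marker, with 1.47, 0.598, 0.396 and 0.298 CPM in unoperated BL6 and 1.70, 1.39, 1.68 and 5.52 CPM in operated BL6. MRL samples had 17.0, 0.767, 0.774 and 1.14 CPM unoperated and 1.62, 1.77, 2.41 and 2.95 CPM operated. As with Adgre1, replicate 1 of unoperated MRL was the highest of all, 19.0 times the mean of the other 3. Itgam was not called with all libraries (1.92 in BL6, adjusted p = 0.0771; -1.16 in MRL, adjusted p = 0.277, both by edgeR's quasi-likelihood test). Left without the 2 libraries, it rose in both strains, by 1.21 (adjusted p = 0.0246) and 1.31 (adjusted p = 0.0194).

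Tyrobp codes for DAP12, an adaptor through which Trem2 and other receptors signal in myeloid and natural killer cells (chromosome 7, 30413760 to 30417585, plus strand). It was the single marker whose BL6 groups did not overlap, while 27.5% of all genes had operated BL6 samples wholly above unoperated ones. Its levels were 5.20, 2.44, 1.74 and 1.22 CPM unoperated and 8.15, 5.31, 9.63 and 35.6 CPM operated in BL6. In MRL they were 35.4, 2.94, 3.10 and 3.41 CPM unoperated and 6.66, 6.66, 12 and 11.8 CPM operated. Tyrobp had the largest fitted rise of the markers in BL6, 2.48 (SE 0.83, edgeR quasi-likelihood adjusted p = 0.0155), and -0.27 in MRL (adjusted p = 0.788). It rose without the 2 libraries by 1.54 in BL6 (adjusted p = 0.00368) and 1.57 in MRL (adjusted p = 0.00574).

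C1qa, C1qb and C1qc code for the chains of C1q, the recognition molecule of the classical complement pathway, which tissue macrophages secrete and which tags dying cells for uptake. The genes stand side by side on the minus strand of chromosome 4, within 18675 bases, C1qb at 136880129 to 136886187, C1qc at 136889804 to 136893065 and C1qa at 136895917 to 136898803. C1qa had 17.2, 8.07, 6.32 and 5.60 CPM in unoperated BL6 and 27.9, 14.6, 26.8 and 109 CPM in operated BL6, and 61.5, 15.2, 12.8 and 17.7 CPM in unoperated and 23.1, 25.4, 44.3 and 54.4 CPM in operated MRL. C1qb had 16.9, 7.59, 5.84 and 4.74 CPM in unoperated and 26.4, 14.6, 27.2 and 102 CPM in operated BL6, and 48.6, 9.35, 9.64 and 11.7 CPM in unoperated and 18.3, 19.1, 34.6 and 36.5 CPM in operated MRL. C1qc had 14.4, 6.46, 5.84 and 4.68 CPM in unoperated and 21.4, 12, 23.2 and 86.8 CPM in operated BL6, and 50.5, 10.7, 10.4 and 11.9 CPM in unoperated and 19.6, 18.3, 31.3 and 39.5 CPM in operated MRL. For each chain, only replicate 1 of the unoperated samples overlapped the operated samples of its strain.

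The C1q chains were among the firmest rises. With all libraries C1qa rose in BL6 by 2.27 (SE 0.64, adjusted p = 0.00576), C1qb by 2.29 (SE 0.66, adjusted p = 0.00649) and C1qc by 2.20 (SE 0.64, adjusted p = 0.00709), by edgeR's quasi-likelihood test. In MRL they had 0.46, 0.46 and 0.38, with adjusted p-values of 0.547 to 0.621. The rises without the 2 libraries were, in BL6, 1.31, 1.37 and 1.27 and, in MRL, 1.28, 1.42 and 1.31, and all 6 were called (adjusted p at most 0.0137).

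**Figure D2:**
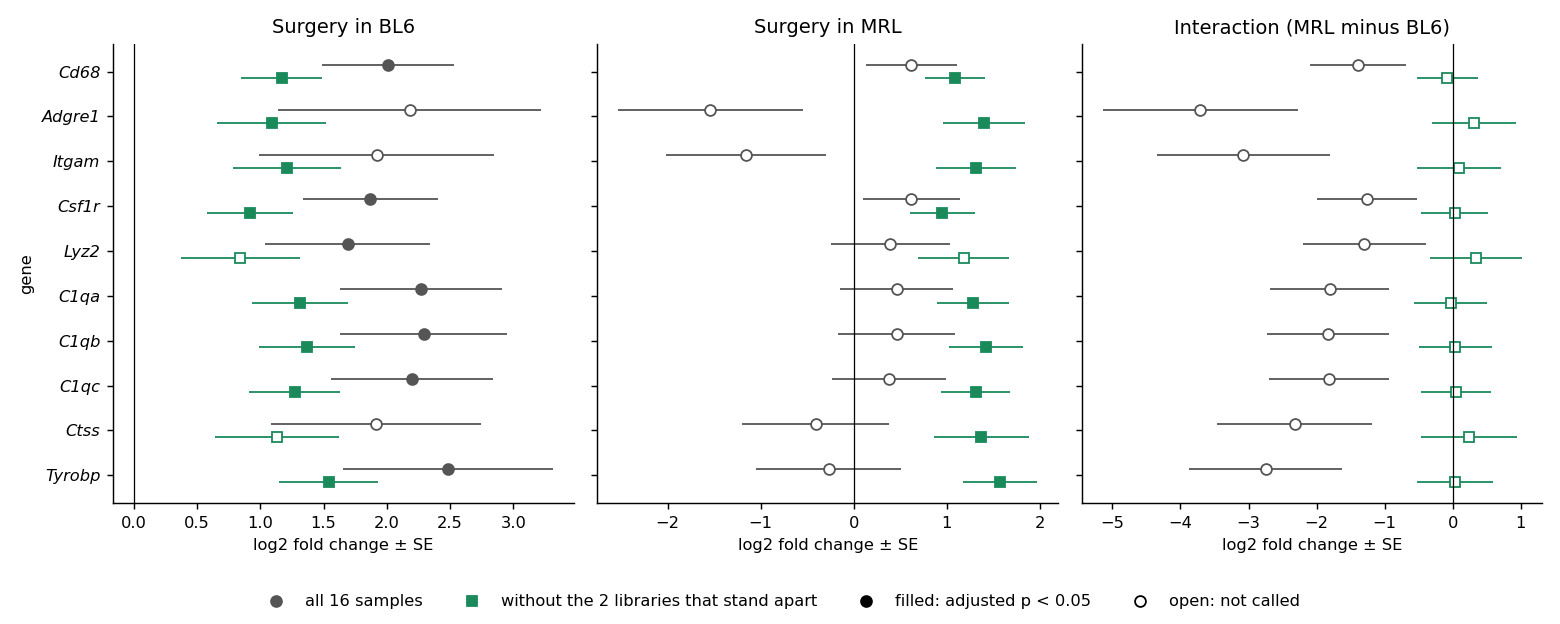
Log2 fold change of each marker with surgery in BL6, in MRL, and their difference (MRL minus BL6), with bars for the SE, from edgeR's quasi-likelihood fit of all 16 samples (grey circles) and of the 14 without the libraries that stand apart (green squares). Filled symbols have an adjusted p under 0.05: 7 grey and 8 green in BL6, 0 grey and 9 green in MRL, and none in the difference.

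The calls depended on which libraries were left out. Without replicate 4 of operated BL6 alone, 4 of 10 markers were called in BL6, where 3726 of 11709 genes rose. Without replicate 1 of unoperated MRL alone, 10 of 10 were called in BL6 (4118 of 11709 genes rose). In MRL that fit called 1 of 10 (2903 of 11709 genes rose). The operated and unoperated MRL samples did not overlap for 10 of 10 markers once the 2 libraries were left out, while 26.4% of all genes had operated MRL samples wholly above the others. With all libraries it was 0 of 10, against 17.0% of genes. In BL6 the count stayed at 1 of 10 without the 2 libraries (30.8% of genes), because replicate 1 of unoperated BL6, with a summed level of 188 CPM against 46.0 to 73.7 in the other 3, was above replicate 2 of operated BL6, at 122. A fit without this library as well, chosen after its values were seen, called 10 of 10 markers as higher in both BL6 (32.4% of genes) and MRL (29.2% of genes). A fit without the 2 libraries and replicate 4 of operated MRL, chosen in the same way, called 7 of 10 in MRL (31.1% of genes), and missed Csf1r, Ctss and Lyz2 (adjusted p = 0.0831, 0.0731 and 0.105).

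The authors' deposited table had 6 of 10 markers that passed a false discovery rate of 0.05 for surgery in BL6 (64.9% of all genes) and 7 of 10 in MRL (56.4%), and the median log2 fold change was 1.18 in each. For MRL that table lists 1.03 for Adgre1 and 0.90 for Itgam, where the fit of all 16 samples here gave -1.54 and -1.16 and the fit without the 2 libraries 1.40 and 1.31. For C1qb and C1qc the authors' deposited table lists 1.40 and 1.31 in MRL, where the fit of all samples gave 0.46 and 0.38 and that without the 2 libraries 1.42 and 1.31. The samples and settings behind the authors' table are not given in the sources used here.

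The second question is whether the strains differed. The strain comparisons share their samples with the surgery comparisons. With all libraries no marker was called between the strains, either unoperated (0 of 10, 5.02% of genes higher in MRL, 7 of 10 at an unadjusted p under 0.05 against 24.3% of all genes, median log2 difference 1.47) or operated (0 of 10, 7.60% higher in MRL, 0 of 10 unadjusted against 26.7%, median -0.40). DESeq2 called 0 of 10 in both, with 832 and 1045 of 11709 genes higher in MRL. Voom with quality weights called 4 of 10 in the unoperated samples and 0 in the operated ones, where 1032 of 11709 genes were higher in MRL. In the unoperated samples voom called 2152 of 11709 genes as higher in MRL and 2054 as lower. Without the 2 libraries the medians were 0.25 and 0.43, again with 0 of 10 called (4.55% and 8.10% of genes higher in MRL, 1 of 10 markers at an unadjusted p under 0.05 in each, against 22.6% and 29.2% of genes). Cd68 had the largest difference of the markers there, 0.85 in unoperated samples (SE 0.32, adjusted p = 0.122 in edgeR's quasi-likelihood test) and 0.77 in operated ones (SE 0.32, adjusted p = 0.121). When replicate 1 of unoperated BL6 was left out too, Cd68 was higher in MRL by 1.28 unoperated (adjusted p = 0.00438) and 0.77 operated (adjusted p = 0.0362), and C1qa by 1.18 unoperated (adjusted p = 0.0356), with 5.24% and 8.22% of all genes higher in MRL in the 2 comparisons. None of the 10 passed in the authors' deposited table in either comparison (9.86% and 11.9% of genes).

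The ratio of 2 markers within a library does not depend on the scaling of that library, and it was compared for all 45 pairs. Across strains 4 of 45 ratios differed with an adjusted p under 0.05 (exact permutation of strain labels within each surgical state, 90 ratios tested in all for strain and surgery). The ratio of C1qb to C1qa separated the strains completely: it was 0.845 to 1.01 in the 8 BL6 samples and 0.614 to 0.791 in the 8 MRL samples. C1qa was thus higher against C1qb in MRL by 0.39 on the log2 scale (exact p = 0.000408, the smallest the 4900 rearrangements can give, adjusted p = 0.0184), and by 0.43 without the 2 libraries. C1qb to C1qc was 1.0 to 1.23 in BL6 and 0.874 to 1.11 in MRL (exact p = 0.000408, adjusted p = 0.0184). Cd68 to Csf1r was higher in MRL, 0.291 to 0.546 against 0.233 to 0.385, a log2 difference of 0.61 (exact p = 0.00122, adjusted p = 0.0367). Csf1r to C1qa was lower in MRL by a log2 difference of -0.56 (exact p = 0.00163, adjusted p = 0.0367). These 4 remained under 0.05 without the 2 libraries, where Cd68 to C1qb joined them (5 of 45). Whether MRL reads of these genes align as well to the assembly, which is of the BL6 strain, was not tested.

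Between operated and unoperated samples 0 of 45 ratios passed with all libraries and 7 of 45 without the 2. Csf1r was lower after surgery relative to C1qa, C1qb, C1qc and Tyrobp. The ratio of Csf1r to Tyrobp was 3.0 to 5.22 in the 7 unoperated samples and 1.97 to 2.52 in the 7 operated ones, with no overlap (exact p = 0.000816, adjusted p = 0.0184). Csf1r to C1qb was 0.920 to 1.34 unoperated and 0.686 to 0.892 operated (exact p = 0.000816, adjusted p = 0.0184). Lyz2, C1qb and C1qc were also lower against Tyrobp, which had the largest fitted rise of the markers in both strains in that fit.

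**Figure D3:**
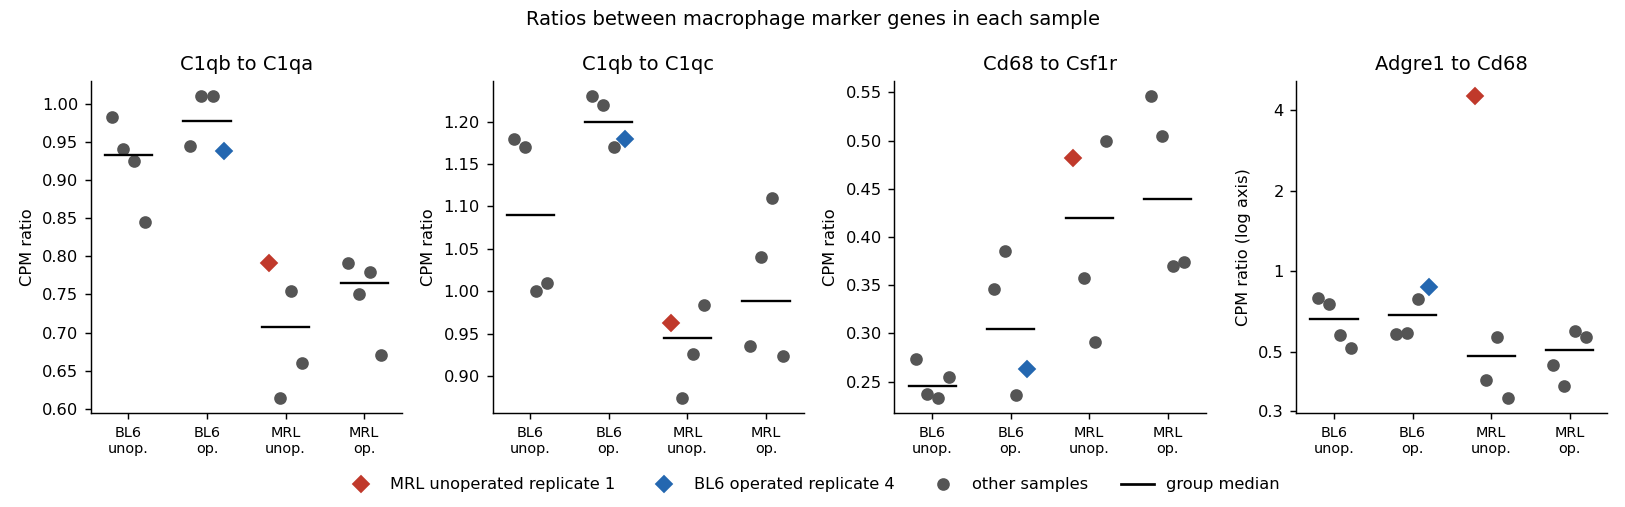
Ratios of CPM between pairs of markers in each sample, by group, with a bar at the group median. C1qb to C1qa lies at 0.845 to 1.01 in BL6 and 0.614 to 0.791 in MRL, and Adgre1 to Cd68 (log axis) lies at 4.51 in replicate 1 of unoperated MRL (red diamond) and 0.336 to 0.875 in the other 15 samples.

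The 2 libraries that stand apart differed in make-up. In replicate 4 of operated BL6 the 10 markers were raised together, by 3.47 times (Itgam) to 5.46 times (Adgre1) the mean of the other 3 samples. In replicate 1 of unoperated MRL they were raised unevenly, from 2.0 times (Csf1r) and 2.52 times (Cd68), over 3.88 to 4.75 times for Lyz2 and the C1q chains, to 10.7 times for Ctss, 11.2 for Tyrobp, 19.0 for Itgam and 27.3 for Adgre1. Adgre1 made up 9.06% of the summed marker level there and 1.39 to 2.31% in the other 15 samples. The ratio of Itgam to Csf1r was 0.761 against 0.0468 to 0.133, that of Tyrobp to Csf1r 1.59 against 0.191 to 0.507, and that of Ctss to Lyz2 0.349 against 0.104 to 0.174. On each of these measures the library was outside the range of all others.

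Other myeloid genes split the same way in that library. Itgb2, the beta chain that pairs with Itgam, was at 37.0 CPM where the rest of its group held 1.69 to 2.28, and Fcer1g, the gamma chain of Fc receptors, at 48.7 against 1.94 to 2.57. Spi1 was at 14.7 CPM against 0.741 to 1.35, and Aif1, an actin-binding protein of macrophages and microglia, at 32.9 against 0.409 to 0.806. Yet Mrc1, the mannose receptor of resident macrophages, was at 13.3 CPM against 9.34 to 10.2, and Cd163, a haemoglobin scavenger receptor, at 7.76 against 6.26 to 7.29. Cd74, the invariant chain of class II molecules, was at 42.9 CPM against 28.4 to 49.5. None (0 of 11) of the resident genes were more than 2 times the mean of the other 3 samples in this library, against 14 of the 16 myeloid genes. In replicate 4 of operated BL6 the counts were 8 of 11 and 15 of 16. Between these lay monocyte genes, 4 of 5 in each library, and genes of lipid-laden macrophages, 5 of 10 in replicate 1 of unoperated MRL. For the latter list it was 4 of 10 in replicate 4 of operated BL6.

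**Figure D4:**
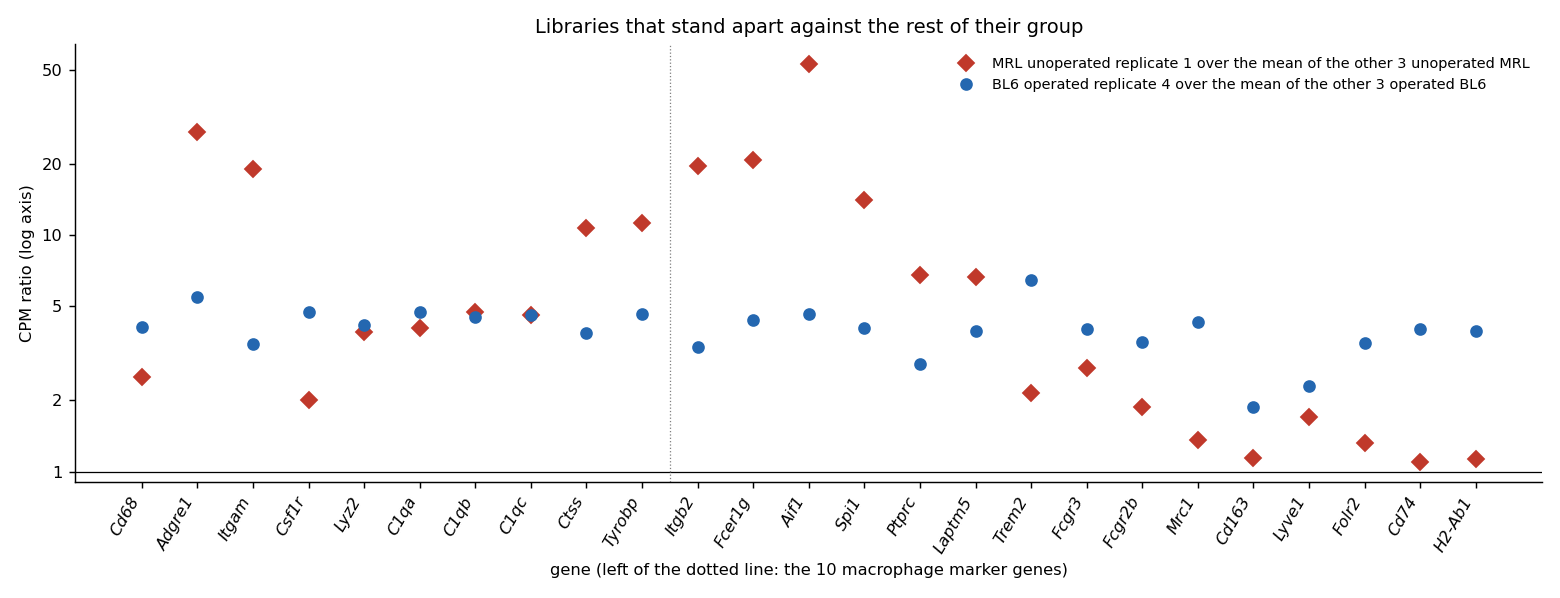
Level in CPM in each library that stands apart, divided by the mean of the other 3 samples of its group (log axis), for the 10 markers and, right of the dotted line, 15 other immune genes. Replicate 1 of unoperated MRL (red diamonds) runs from 2.0 for Csf1r to 27.3 for Adgre1 among the markers and is near 1 for Cd163, Cd74 and H2-Ab1, and replicate 4 of operated BL6 (blue circles) runs from 3.47 to 5.46 among the markers.

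Markers of several other cell types stood apart in replicate 4 of operated BL6. There the summed level of 6 white adipocyte markers was 2250 CPM against 1300 to 1620 in the other operated BL6 samples, that of 4 mast cell markers 49.6 against 6.59 to 15.9, that of 3 dendritic cell markers 278 against 61.1 to 98.7, and that of 7 fibroblast markers 5540 against 1070 to 1750. Not every gene took part: 5 of 6 white adipocyte, 3 of 4 mast cell, 2 of 3 dendritic cell and 3 of 7 fibroblast genes were more than 2 times the mean of the other 3 samples. Skeletal muscle fibre markers summed to 56700 CPM there, against 86500 to 156000, and 5 brown adipocyte markers to 1580 CPM, against 2250 to 2490. Yet 3 of these 5 brown adipocyte genes were more than 2 times the mean of the other 3 samples, so the lower sum does not describe each gene. In replicate 1 of unoperated MRL the same sums were 396 CPM for white adipocytes (272 to 349 in the others), 8.25 for mast cells (5.85 to 6.80), 21 for dendritic cells (19.2 to 25.9), 125000 for muscle fibres (117000 to 130000), 1450 for brown adipocytes (1130 to 1340) and 2100 for fibroblasts (1270 to 1280). Its dendritic cell and fibre sums thus lay within those of its group, and none of its white adipocyte or mast cell genes was above 2 times the mean of the others. S100a9, the one of 10 neutrophil markers in the table, was at 1.04 CPM in that library and at 0.379 to 1.18 in the other 3. Of 12 T cell markers 1 was in the table, of 10 B cell markers 2, and of 6 natural killer markers 0, so those cells could hardly be followed. The part of any of these cells in the marker levels was not tested.

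The ligands and partners of the markers were read from a list of 12 genes, of which the count data held 10. Among these 5 rose in BL6 and 1 in MRL with all libraries (35.1% and 22.3% of all genes, median log2 fold changes 1.08 and 0.15), and 6 and 4 without the 2 libraries (32.7% and 29.1% of all genes, medians 0.68 and 0.58). Csf1, a ligand of Csf1r, was called in neither strain, at 0.33 in BL6 and 0.21 in MRL (adjusted p = 0.260 and 0.507 in edgeR's quasi-likelihood test). Il34, the other ligand, rose in BL6 by 0.87 (adjusted p = 0.00422) and had 0.50 in MRL (adjusted p = 0.0923). Trem2, a lipid-sensing receptor that signals through Tyrobp, rose in BL6 by 3.20 (adjusted p = 0.00122) and had 1.54 in MRL (adjusted p = 0.0618), and without the 2 libraries it rose in both, by 1.96 (adjusted p = 0.00372) and 1.90 (adjusted p = 0.00357). Cd74, whose protein cathepsin S trims, was called in both strains with all libraries, at 2.32 (adjusted p = 0.000813) and 1.5 (adjusted p = 0.0203).

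The proteases that act with C1q split the MRL libraries into 2 sets. C1s1 had 3, 1, 1 and 1 counts in unoperated replicate 1 and operated replicates 1, 2 and 3 of MRL, and 908 to 2133 counts in the other 4 MRL libraries. C1ra had 9 to 25 counts in the first 4 and 259 to 690 in the others. C1rb, a near-identical copy of C1ra, ran the other way, with 368 to 685 counts in the first 4 MRL libraries, 41 to 149 in the others and 0 to 2 in BL6. In BL6, C1s1 had 869 to 4044 counts. Whether the counting moved reads between C1ra and C1rb was not tested, and the levels of the C1q chains overlapped between the 2 sets of MRL libraries. Once replicate 1 of unoperated MRL is left out, the 3 unoperated libraries lie in 1 set and 3 of the 4 operated ones in the other, so this split and surgery in MRL cannot be told apart among these 6. Replicate 4 of operated MRL, in the set of the 3 unoperated libraries, was above all 3 of them for 10 of 10 markers, at 2.53 to 3.74 times their mean. This is 1 library, which stood apart from its group over all genes and in its mitochondrial share (11.8%). How many of all genes lay above those 3 libraries there was not counted, and the part of the split in the marker levels was not tested. C1rb was named after its values were seen.

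Resident macrophage genes changed in BL6 in 11 of 11 cases. Of the 11, 10 rose and 1 fell (median 1.20), and in MRL 3 rose and 0 fell (median 0.57), while 35.1% of all genes rose and 32.8% fell in BL6, and 22.3% rose and 22.7% fell in MRL. Mrc1 rose in both strains, by 1.89 (adjusted p = 0.00188 in edgeR's quasi-likelihood test) and 1.18 (adjusted p = 0.0398). Cd163 rose in BL6 by 1.0 (adjusted p = 0.00474) and had 0.46 in MRL (adjusted p = 0.170), and Folr2, a folate receptor of resident macrophages, rose in BL6 by 1.56 (adjusted p = 0.00328) and had 0.57 in MRL (adjusted p = 0.240). The 1 that fell, Maf, codes for a transcription factor that cells other than macrophages also make, and it fell by 1.51 in BL6 (adjusted p = 3.69e-05 in the same test). Which cells made the other genes of the list was not tested. The summed level of the 11 was 314 to 376 CPM in unoperated BL6. In operated BL6 it was 719 CPM in replicate 4 and 295 to 348 CPM in the rest. In MRL it was 292 to 335 CPM unoperated and 352 to 498 CPM operated. In the fit without the 2 libraries 8 rose and 1 fell in BL6 (32.7% and 31.6% of all genes) and 7 rose and 0 fell in MRL (29.1% and 25.8%).

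Of 10 monocyte genes 5 were in the table, and 3 rose in BL6 and 0 in MRL with all libraries (35.1% and 22.3% of all genes, medians 2.31 and 0.59), against 3 and 4 without the 2 (32.7% and 29.1% of all genes). Cx3cr1, the fractalkine receptor, rose in BL6 by 2.96 (adjusted p = 0.00827 in edgeR's quasi-likelihood test), and had 1.93 in MRL (adjusted p = 0.0843). Cd14, a co-receptor for bacterial lipopolysaccharide, rose in BL6 by 2.31 (adjusted p = 0.00276) and had 0.59 in MRL (adjusted p = 0.386). Ccr2, the receptor that draws monocytes into tissue, had 1.24 in BL6 (adjusted p = 0.0774) and 1.39 in MRL (adjusted p = 0.0744), and without the 2 libraries it rose in MRL by 2.08 (adjusted p = 0.00701) and had 0.64 in BL6 (adjusted p = 0.274).

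Genes of lipid-laden macrophages rose in 7 of 10 cases in BL6 and 3 of 10 in MRL, where 1 fell (35.1% and 22.3% of all genes rose, medians 2.09 and 0.99). Spp1, which codes for osteopontin, rose in BL6 by 2.65 (adjusted p = 0.00252 in edgeR's quasi-likelihood test) and had 0.25 in MRL (adjusted p = 0.752). Lgals3, galectin-3, rose in BL6 by 2.62 (adjusted p = 0.000726) and had 1.10 in MRL (adjusted p = 0.0955). Cd9, a tetraspanin, rose in both strains, by 1.93 (adjusted p = 1.27e-05) and 0.96 (adjusted p = 0.00307). White adipocyte markers rose in 6 of 6 cases in both strains, and their part in the rise of lipid genes was not tested. With the 2 libraries left out, 7 rose in BL6 (32.7% of all genes), and 6 rose and 1 fell in MRL (29.1% of all genes rose).

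Of 16 general myeloid genes, 12 rose in BL6 (35.1% of all genes, median 2.24) and 1 in MRL (22.3%, median -0.17), against 12 (32.7%, median 1.36) and 14 (29.1%, median 1.44) without the 2 libraries. Ptprc, which codes for CD45, had 1.07 in BL6 (adjusted p = 0.136) and 0.14 in MRL (adjusted p = 0.857), and without the 2 libraries it rose in MRL by 1.44 (adjusted p = 0.00430). Fcer1g rose in BL6 by 2.58 (adjusted p = 0.0221 in edgeR's quasi-likelihood test) and had -0.77 in MRL (adjusted p = 0.477), and without the 2 libraries it rose in both, by 1.68 (adjusted p = 0.000572) and 1.81 (adjusted p = 0.00119). Spi1 likewise rose in BL6 by 2.24 (adjusted p = 0.0312) and had -0.81 in MRL (adjusted p = 0.416), and without the 2 libraries it rose by 1.41 (adjusted p = 0.00646) and 1.29 (adjusted p = 0.0132).

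Other lysosomal proteases were read as a list of 10 cathepsins and legumain (Lgmn). Of these 11, 5 rose and 1 fell in BL6 (35.1% and 32.8% of all genes, median 0.33), and 2 rose and 2 fell in MRL (22.3% and 22.7%, median 0.37). Without the 2 libraries 5 rose and 1 fell in BL6 (32.7% and 31.6%), and 7, Lgmn among them, rose and 2 fell in MRL (29.1% and 25.8%). Ctsb, cathepsin B, was called in neither strain (0.13 and 0.10, adjusted p = 0.344 and 0.506 in edgeR's quasi-likelihood test). Ctsc, cathepsin C, fell by 0.69 in BL6 (adjusted p = 0.00217) and fell by 0.79 in MRL (adjusted p = 0.00304). Ctsk, cathepsin K of osteoclasts and fibroblasts, rose in BL6 by 2.68 (adjusted p = 0.000927) and had 1.25 in MRL (adjusted p = 0.0752).

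Of 17 chemokines and cytokines only 8 were in the table. With all libraries 7 of these 8 rose in each strain (35.1% and 22.3% of all genes, medians 1.73 and 1.18). Without the 2 libraries it was 6 of 8 in BL6 and 7 of 8 in MRL (32.7% and 29.1%). Ccl8, which attracts monocytes, rose in BL6 by 5.88 (adjusted p = 0.000247 in edgeR's quasi-likelihood test) and in MRL by 2.78 (adjusted p = 0.0217). The BL6 value rested in part on replicate 4, where Ccl8 was at 29.3 CPM against 1.20 to 3.26 in the other operated samples, and without the 2 libraries it was 3.76 (adjusted p = 0.000341). Cx3cl1, the ligand of Cx3cr1, rose by 2.21 in BL6 (adjusted p = 0.00138) and 2.60 in MRL (adjusted p = 0.00213). Ccl6 and Ccl9, chemokines of myeloid cells, rose in BL6 by 1.51 (adjusted p = 0.00311) and 2.12 (adjusted p = 0.000256) and in MRL by 1.39 (adjusted p = 0.0107) and 1.20 (adjusted p = 0.0190).

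The genes most like the markers across samples were sought among all other genes, by the correlation of log2 CPM with the mean standardised level of the 10. Laptm5, a lysosomal membrane protein of blood cells, came first, with Pearson's r of 0.986 over the 16 samples and 0.972 over the 14 without the 2 libraries. Its levels ran from 2.92 to 8.80 CPM in unoperated BL6 and 8.10 to 53.6 CPM in operated BL6. After it came Ncf1 (0.984), Slc11a1 (0.982), Lcp1 (0.977), Myo1f (0.975), Cotl1 (0.973), and Pld4, Il10ra, Alox5ap and Coro1a (0.968 each). Ncf1 is a subunit of the phagocyte NADPH oxidase, Slc11a1 a metal transporter of phagosomes, and Alox5ap a protein needed for leukotriene synthesis. With the group means subtracted, Laptm5 was again first (0.980), followed by Arhgap30 (0.979), Myo1g (0.978), Mpeg1 (0.976) and Myo1f (0.976). These are descriptions over libraries that share their depth and scaling, and the 2 libraries that stand apart carry much of the spread.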

How the data were processed

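RNA of rotator cuff muscle was sequenced in 16 samples of 4 groups (4 each), assigned from the sample titles. The authors deposited raw counts per gene and a table of comparisons with log2 fold changes and p-values with false discovery rates. Per the submitters' processing notes, FastQC, STAR and edgeR were used with mm10; the counting program, its use of strand and the model behind the table are not given in the sources used here. The mm10 assembly is of C57BL/6J, and whether MRL reads align to it as well was not tested.

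The counts were fitted in edgeR 4.0.16 (R 4.3.3) with trimmed mean of M-values scaling, 1 mean per group, a quasi-likelihood F test and Benjamini-Hochberg adjustment over the 11709 genes kept by a minimum count of 10 (1 gene removed); a gene was called with an adjusted p under 0.05. Fold changes and SE are on the log2 scale. CPM use the scaled library sizes, and log2 CPM a prior count of 2. On simulated counts for surgery in BL6, over 11710 genes, 65% of genes changed by 1 on the log2 scale and 95% of those changed by 2 were called, with 0.0608% of unchanged genes. The simulation capped the spread between samples, held no library that stands apart and changed only 200 genes. Its shares therefore need not hold for the markers. Ratios of markers were compared by exact permutation, two-sided, with Benjamini-Hochberg adjustment. Levels per kilobase use exon lengths of GENCODE M21 (GRCm38), in which 11708 of 11710 gene IDs were found; promoters are RefSeq's.

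The markers, the gene lists and the choice of the 2 libraries shown apart were made with earlier results of these data known, and so give no independent support. A gene of the resident macrophage list is not reported here and was left out of its counts. All 10 markers are named with every sample's value. From each other list, called genes were named in list order, at most 4, besides genes whose role beside a marker is described; Aif1, H2-Ab1, Ctsk, Ccl9, Folr2, Lyz1, C1rb and S100a9 are named outside that rule. Replicate numbers come from the titles. No pair of replicates agreed within sampling noise (chi-square per degree of freedom at least 14.8). Intervals on counts cover counting error only. Alternatives were other scalings and filters, DESeq2 1.42.0, limma 3.58.1 (voom with sample quality weights), robust dispersion, a replicate block, a fit of the compared groups alone, and leaving out each replicate, the 2 libraries, or these with replicate 1 of unoperated BL6 or replicate 4 of operated MRL.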

Additional observations from a re-analysis of the deposited data

Results flagged for a closer look

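A sample was marked where its gap to the nearest other sample, divided by the range of its group of 4, passed Dixon's 95% critical value, which chance passes in about 1 group in 20. Replicate 4 of operated BL6 was marked for 9 of 10 markers and replicate 1 of unoperated MRL for 8 of 10. For the other samples it was 3 of 60 tests. Those 60 include the low ends of the same groups, whose range these libraries widen, so the counts are not a like comparison. Both libraries were chosen with marker results known, and the markers of a library move together, so the marks give no independent support.

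Replicate 4 of operated BL6 was far above its group in Cd68 (21.8 CPM), Adgre1 (19.1), Itgam (5.52), Lyz2 (320), C1qa (109), C1qb (102), C1qc (86.8), Ctss (44.0) and Tyrobp (35.6), and in the summed level of the 10 markers (828). Csf1r, at 83.1 CPM there, was not marked.

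Replicate 1 of unoperated MRL was far above its group in Adgre1 (48.5 CPM), Itgam (17.0), Lyz2 (179), C1qa (61.5), C1qb (48.6), C1qc (50.5), Ctss (62.4) and Tyrobp (35.4), and in the summed level (536). Cd68 (10.8 CPM) and Csf1r (22.3) were not marked there.

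Replicate 1 of unoperated BL6 was marked for Cd68 (4.27 CPM), Csf1r (15.6) and Ctss (12.7).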

How the results depend on the processing

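The rise in BL6 kept its direction for every marker under every alternative run. Apart from the fits that left out 1 replicate alone, 7 to 10 markers were called. In those alternatives 3700 of 10481 genes (stricter filter) to 4443 of 11709 (total counts) rose. Leaving out 1 replicate gave 4 markers (without replicate 4 of operated BL6, 3726 of 11709 genes rising) to 10 (without replicate 1 of unoperated MRL, 4118 of 11709). With total counts as the only scaling, the median log2 fold change of all genes for surgery in BL6 moved from 0.041 to 0.177 and that of the markers from 2.09 to 2.36, with 8 called (4443 of 11709 genes rose). The mean correlations of same-numbered samples were -0.141 between the BL6 groups, 0.092 between the MRL groups, and 0.16 and 0.165 between strains. Of 4 samples, 0 to 2 matched their own number best. No clear pairing by number was seen, but with 4 samples per group this check cannot exclude it. The replicate block called 9 markers in BL6 (Itgam, adjusted p = 0.0410, and Ctss, 0.0182, joined) and left the other counts of calls as they were. With the block 4047 of 11709 genes rose in BL6.

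For surgery in MRL, voom with quality weights called 4 markers, the fit without the 2 libraries 9, and the fit also without replicate 1 of unoperated BL6 10; without the 2 and replicate 4 of operated MRL it was 7. Between unoperated strains voom called 4, and the fit without the 2 libraries and replicate 1 of unoperated BL6 called 2. Between operated strains that same fit called 1. Leaving out 1 replicate gave 0 to 1 calls for MRL surgery, 0 to 2 between unoperated strains, and 0 for the difference of responses and between operated strains. Among all genes, these fits called 1740 to 3081 as higher with surgery in MRL. They called 377 to 766 as higher in unoperated MRL and 554 to 1147 in operated MRL. For the difference of responses they called 1 to 69 genes. Adgre1, Itgam, Ctss and Tyrobp, negative for surgery in MRL, became 0.83, 0.83, 1.03 and 1.07 with voom, and 1.40, 1.31, 1.37 and 1.57 in the fits without the 2 libraries and also without replicate 1 of unoperated BL6 (1.20, 1.10, 1.13 and 1.41 without replicate 4 of operated MRL instead). With the block Ctss became 0.39 and Tyrobp 0.41. Leaving out 1 replicate gave -1.91 to 1.39 for Adgre1, -1.52 to 1.3 for Itgam, -0.75 to 1.37 for Ctss and -0.59 to 1.57 for Tyrobp.

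The difference of responses turned positive without the 2 libraries, to 0.31 for Adgre1, 0.09 for Itgam, 0.03 for Csf1r, 0.34 for Lyz2, 0.04 for C1qb, 0.05 for C1qc, 0.24 for Ctss and 0.03 for Tyrobp, but all 10 were negative again when replicate 1 of unoperated BL6 was left out too (median -0.49). Leaving out 1 replicate, alone or with the 2 libraries, gave -4.33 to 0.13 for Adgre1, -2.11 to 0.14 for Lyz2 and -3.23 to 0.02 for Ctss. The difference between operated strains, negative with all libraries, was positive in the 3 fits without the 2 libraries, in the first of them at 0.77 for Cd68, 0.41 for Adgre1, 0.47 for Itgam, 0.29 for Csf1r, 0.44 for Lyz2, 0.68 for C1qa, 0.26 for C1qb, 0.53 for C1qc, 0.39 for Ctss and 0.27 for Tyrobp. With voom it was 0.35 for Cd68, 0.04 for Itgam and 0.00 for C1qa, and with the block 0.14 for Cd68. Leaving out 1 replicate gave -0.32 to 0.77 for Cd68, -0.98 to 0.41 for Adgre1, -0.44 to 0.47 for Itgam, -0.97 to 0.29 for Csf1r, -0.69 to 0.44 for Lyz2, -0.57 to 0.68 for C1qa, -0.94 to 0.26 for C1qb, -0.69 to 0.53 for C1qc, -0.64 to 0.39 for Ctss and -0.94 to 0.27 for Tyrobp. The fits without libraries leave out the highest values of these groups, and for the other alternatives the cause was not tested.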
